A study of Mus musculus with 10 samples.

Results

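Nuclear genes for the subunits of the mitochondrial respiratory chain and of ATP synthase were examined in mouse liver, together with the assembly factors that carry the same gene names. Members were the genes with a probe set of 1 gene symbol beginning with Ndufa, Ndufb, Ndufc, Ndufs, Ndufv, Sdha, Sdhb, Sdhc, Sdhd, Uqcr, Cox4, Cox5, Cox6, Cox7, Cox8 or Atp5. This rule uses names alone and took 94 of the 18193 genes named on the array. Of these, 35 encode subunits of complex I, 8 assembly factors of complex I, 4 subunits of complex II, 4 assembly factors of complex II, 8 subunits of complex III, 10 of complex IV and 17 of ATP synthase (complex V), and 8 are isoforms that are mostly restricted to tissues other than liver. Ndufa4 is counted with complex I here by its symbol, although its protein is now placed in complex IV.

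Livers came from female mice of 2 inbred strains, C57BL/6J, here called B6, and DBA/2J, here called D2, and their RNA was hybridised to Affymetrix arrays. Both strains received a diet high in fat and cholesterol for 0, 1, 4, 12 or 21 weeks, and RNA from 5 mice was pooled for each of the 10 arrays. There was thus 1 array of B6 and 1 of D2 without the diet, and 4 arrays of each strain on it. The labels give neither the age of the mice nor the spread between the mice of a pool. No strain and week had a second array, so the weeks stood in for replicates. In the strain fit, with week as a block, the error holds the spread of the strain difference between weeks. In the diet fits it holds the spread between weeks and between pools together. In the fit of a slope on week it holds the spread about the line. Values are log2 of quantile-normalised signal, and a difference of 1 on this scale is a doubling.

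Complexes I to IV, which lie in the inner mitochondrial membrane, pass electrons from NADH and succinate to oxygen. Complexes I, III and IV move protons across the membrane meanwhile, and ATP synthase spends that gradient. Most of the subunits are encoded in the nucleus, and a few core subunits in mitochondrial DNA. Nuclear respiratory factor 1 (NRF1), ETS family factors of the GABP type and YY1 are known regulators of many of these nuclear genes. Hepatocytes are rich in mitochondria and oxidise fatty acids through this chain.

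The promoters of the genes below are shown because they carry the letters of the sites of those 3 regulators, and because Ndufa12, Sdha, Uqcrc1, Cox8a and Atp5j stand for complexes I to V. They were taken from RefSeq on GRCm38.p6, are 300 bases long with the annotated start near their end, and are written 5′ to 3′ along the gene. Capitals mark the motif letters. Ndufa12 is at chr10:94198785-94199084 on the plus strand, and its capitals are 1 NRF1 core.
Ndufa12: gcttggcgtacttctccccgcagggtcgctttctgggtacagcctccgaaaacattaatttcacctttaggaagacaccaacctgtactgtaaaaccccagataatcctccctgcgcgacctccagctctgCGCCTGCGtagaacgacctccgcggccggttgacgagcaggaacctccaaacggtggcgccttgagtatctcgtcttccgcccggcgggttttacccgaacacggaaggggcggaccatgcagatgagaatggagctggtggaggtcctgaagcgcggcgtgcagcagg
Sdha is at chr13:74350191-74350490 on the minus strand, with 3 NRF1 cores.
Sdha: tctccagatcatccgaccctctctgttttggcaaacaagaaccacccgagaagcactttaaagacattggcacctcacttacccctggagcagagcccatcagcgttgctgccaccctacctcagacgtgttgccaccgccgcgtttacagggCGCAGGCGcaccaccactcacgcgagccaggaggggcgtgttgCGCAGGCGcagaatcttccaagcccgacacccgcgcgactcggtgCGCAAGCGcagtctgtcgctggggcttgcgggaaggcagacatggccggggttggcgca
Uqcrc1 is at chr9:108936398-108936697 on the plus strand, with 2 NRF1 cores close to the start.
Uqcrc1: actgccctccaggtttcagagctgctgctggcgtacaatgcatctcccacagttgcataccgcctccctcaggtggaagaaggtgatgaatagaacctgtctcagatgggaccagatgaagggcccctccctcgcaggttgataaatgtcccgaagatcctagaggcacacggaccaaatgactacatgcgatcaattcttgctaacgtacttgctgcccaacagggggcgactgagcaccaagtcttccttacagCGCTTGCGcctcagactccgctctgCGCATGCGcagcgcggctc
Cox8a is at chr19:7217567-7217866 on the minus strand, with 2 ETS motifs.
Cox8a: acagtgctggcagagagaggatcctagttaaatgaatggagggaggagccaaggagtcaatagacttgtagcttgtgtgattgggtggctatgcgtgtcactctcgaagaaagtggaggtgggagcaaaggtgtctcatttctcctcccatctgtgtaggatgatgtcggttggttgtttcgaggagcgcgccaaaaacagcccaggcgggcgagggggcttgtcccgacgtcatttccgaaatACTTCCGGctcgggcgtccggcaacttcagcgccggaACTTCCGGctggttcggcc
Atp5j has a window at chr16:84834927-84835226 on the minus strand, with 1 NRF1 core, 1 YY1 motif and 1 ETS motif, in that order. The window of its other annotated start, chr16:84835576-84835875, held none of the 3 motifs and is not shown.
Atp5j: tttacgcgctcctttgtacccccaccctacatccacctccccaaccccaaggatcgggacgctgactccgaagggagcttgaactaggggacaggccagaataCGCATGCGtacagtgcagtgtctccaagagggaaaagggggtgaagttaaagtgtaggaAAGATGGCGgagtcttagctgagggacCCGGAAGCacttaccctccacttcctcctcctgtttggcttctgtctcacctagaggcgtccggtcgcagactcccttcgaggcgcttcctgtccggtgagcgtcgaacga

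The motifs searched were CGCANGCG for the NRF1 core, CCGGAAGT or CCGGAAGC for ETS factors and AAGATGGCG for YY1, each on both strands. No member window held overlapping matches of different motifs. Windows were matched by symbol for 78 of the 94 members, some with more than 1 start, which gave 83 windows. Counts are of windows and not of genes. Overlapping windows of a gene can count the same site again, as with the NRF1 core of Atp5c1, Ndufa5 and Ndufa7. The NRF1 core was found in 32 of these 83 windows (38.55%), against 8.21% of all 32851 promoter windows in the table. ETS motifs were in 12 (14.46%, against 6.42%) and the YY1 motif in 7 (8.43%, against 1.4%). Any of the 3 was in 45 windows (54.22%, against 14.45%). ATP synthase genes carried the NRF1 core in 11 of 18 windows and complex IV genes in 1 of 8, while the 4 windows of tissue-restricted isoforms held none of the 3 motifs. The member windows were also richer in G and C (median 59.0% against 52.7%), and the part of base composition in these shares was not tested. A match describes letters and is not a measured site of binding.

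After normalisation, 88 of the 94 members passed the filter on low signal, which asked for a mean above 3.74. The means of the 88 ran from 4.49 to 12.51, and 60 of them lay above 10. These levels do not rank the genes, since probe sets differ in sensitivity. Of the 6 genes that did not pass, 5 are tissue-restricted isoforms: Cox4i2, Cox6a2, Cox7b2, Cox8b and Ndufa4l2. Cox6a2 and Cox8b are the muscle forms of their subunits. Their 10 arrays ran from 1.94 to 4.64 for Cox6a2 and from 0.63 to 3.88 for Cox8b. The 7 skeletal and cardiac muscle markers were likewise all below the filter. The remaining gene, Ndufb4 of complex I, was read here by a probe set with a mean of 2.82, whereas a probe set shared with its close copies averaged 10.51 ± 0.09 over the B6 arrays and 10.44 ± 0.10 over the D2 arrays (SD, n = 5).

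Correlations between arrays of a strain were 0.911 to 0.967 for B6 and 0.957 to 0.982 for D2, and the 2 week 0 arrays had the lowest deposited trimmed means (56.2 and 56.9, against 68.9 to 89.1 with diet). Nnt, which is partly deleted in C57BL/6J, was lower in the arrays labelled B6 (D2 minus B6 1.19 ± 0.11 SE, limma, adjusted p = 0.00057). The 11 measured hepatocyte markers summed to a signal of 61867 to 65880 in every array. They lie near the top of the signal range, where quantile normalisation makes arrays alike, so this sum is no measure of hepatocyte share. In pooled tissue RNA, fewer cells of a type and less RNA per cell cannot be told apart.

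The strains were compared with week as a block. The median D2 minus B6 difference of the members was 0.02 on the log2 scale (0.01 over all 11061 genes tested), with 52 members above 0 and 36 below. In limma with Benjamini-Hochberg adjustment over all genes, no member was higher in D2 and 3 were lower: Ndufa12, Atp5mpl and Ndufaf6. Of all genes, 7.98% passed in either direction and 4.08% were lower in D2, so the share of members (3 of 88) was not above that of other genes. At an unadjusted p under 0.05 there were 13 members (14.8%, against 24% of all genes). For 82 of the 88 the 95% interval of the difference lay within 1 on either side of 0, and for 77 within 0.5.

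Ndufa12 is an accessory subunit of the matrix arm of complex I. In B6 its signal was 10.66, 10.80, 10.54, 10.71 and 10.75 at weeks 0, 1, 4, 12 and 21. In D2 it was 10.15, 9.76, 9.73, 9.79 and 9.61 at the same weeks. Every D2 array was below every B6 array. The difference was -0.88 ± 0.10 (SE; limma, adjusted p = 0.00184).

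The other probe sets of Ndufa12 did not give the same answer. A second one (1433513_x_at) was also lower in D2 at all 5 weeks, by a mean difference of -0.53. The suffixes x and s mark probe sets that may match several targets, and the one used above (1455806_x_at) bears x as well. Probe set 1418814_s_at was higher in D2 at all 5 weeks, at 10.19, 9.47, 9.66, 9.57 and 9.98 against 9.56, 9.34, 9.49, 9.22 and 9.76 in B6, a mean difference of 0.30. The remaining one (1425919_at) was dim, with a difference of -0.25. With all 4 averaged, Ndufa12 did not pass (-0.34, limma, adjusted p = 0.0622). Whether a sequence difference under the probes sets these values was not tested. The direction given for Ndufa12 holds for the probe set with the highest signal and not for all 4.

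Atp5mpl encodes a small proteolipid attached to the membrane part of ATP synthase. It read 9.94, 10.12, 9.91, 9.93 and 9.93 in B6 in order of week. In D2 it read 9.17, 9.37, 8.99, 8.63 and 9.45. The strains did not overlap, and the D2 arrays spread more widely (SD 0.33, against 0.09 in B6). The difference was -0.84 ± 0.12 (SE; limma, adjusted p = 0.00453). Only 1 probe set reads this gene, so there was no second reading of it.

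Ndufaf6, an assembly factor of complex I, had signals of 7.63, 7.68, 6.97, 7.32 and 7.08 in B6. Its D2 signals were 6.68, 6.48, 6.60, 6.84 and 6.69. The groups again did not overlap, but the lowest B6 array stood close to the highest D2 array. The difference was -0.68 ± 0.15 (SE; limma, adjusted p = 0.0307). It no longer passed when any array of weeks 0, 1, 12 or 21 was left out, with adjusted p up to 0.0825.

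**Figure D1:**
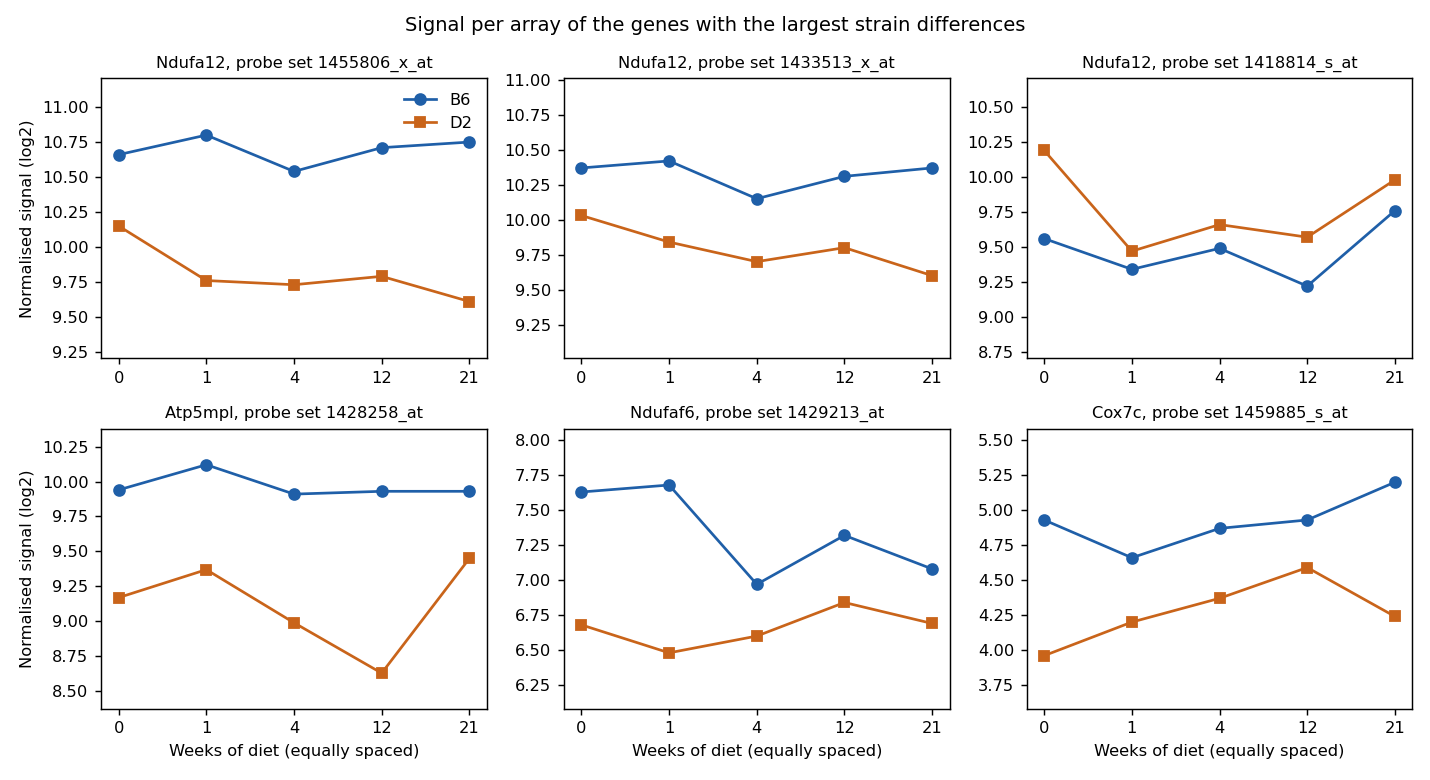
Log2 normalised signal (y) against weeks of diet (x, equally spaced) in B6 (blue circles) and D2 (orange squares) for 3 probe sets of Ndufa12 and the probe sets of Atp5mpl, Ndufaf6 and Cox7c; each point is 1 array of 5 pooled mice, and every y axis spans 2 units. D2 lies below B6 throughout in 5 panels, and above it in the panel of the Ndufa12 probe set 1418814_s_at.

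Cox7c, a small subunit of complex IV, was the next lowest in D2. Its B6 signals were 4.93, 4.66, 4.87, 4.93 and 5.20, and its D2 signals 3.96, 4.20, 4.37, 4.59 and 4.24. The groups did not overlap, but the difference of -0.65 ± 0.19 (SE) did not pass (limma, adjusted p = 0.0739). This probe set is dim, and the second one of the gene lay below the filter. All 5 D2 arrays were below all 5 B6 arrays for 5 members (Atp5mpl, Cox7c, Ndufa12, Ndufa13 and Ndufaf6), 5.68% of the 88 against 4.13% of all genes. All 5 were above for Ndufaf1 and Ndufs3, 2.27% against 4.17%.

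Complex II, which oxidises succinate, gave no call in its 4 subunits. Sdha, the flavoprotein that holds the active site, had means of 10.77 ± 0.11 in B6 and 10.77 ± 0.07 in D2 (SD, n = 5). Sdhb, the iron-sulphur subunit, differed by 0.10 ± 0.07 (SE), and Sdhc, a membrane anchor, by 0.12 ± 0.07. Sdhd, the other membrane anchor, had the largest difference of the complex (0.26 ± 0.10 SE; limma, adjusted p = 0.139). Its B6 signals were 10.08, 10.15, 9.76, 10.11 and 10.17, and its D2 signals 10.15, 10.43, 10.40, 10.37 and 10.25. D2 was the higher strain at all 5 weeks, but the ranges of the strains overlapped between 10.15 and 10.17.

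Differences were small in the other complexes. The 8 subunits of complex III ran from -0.09 (Uqcrb, a small subunit) to 0.17 (Uqcr11). Uqcrb read 12.51 to 12.59 in B6 and 12.41 to 12.51 in D2. Apart from Atp5mpl, the ATP synthase genes lay between -0.18 (Atp5h, the peripheral stalk subunit d) and 0.18 (Atp5g1, a gene for the c ring). That range holds for the probe sets used. Atp5k stood at -0.02 there (mean signal 10.55), but its other probe sets gave mean differences of -0.38 and -0.23. Those were about as bright (10.55 and 10.39), and each was lower in D2 at all 5 weeks. In the probe set at -0.38 the strains did not overlap. Atp5b, the catalytic beta subunit, had means of 11.88 ± 0.15 in B6 and 11.87 ± 0.06 in D2 (SD, n = 5). Apart from Ndufa12, the complex I subunits ran from -0.28 (Ndufs8) to 0.21 (Ndufs7), and neither end passed (limma, adjusted p = 0.162 and 0.221).

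Cox7a2l links complexes III and IV, and C57BL/6 mice are known to carry a shortened form of its protein. Its signal was 9.37, 9.27, 9.56, 9.47 and 9.55 in B6, and 9.66, 9.80, 9.41, 9.53 and 9.65 in D2. The groups overlapped, and the difference of 0.16 ± 0.11 (SE) did not pass (limma, adjusted p = 0.395). The differences of its 3 probe sets were 0.16, 0.26 and 0.19. Among the 3 tissue-restricted isoforms above the filter, Cox6b2, the testis form, had the widest difference (0.62 ± 0.24 SE; limma, adjusted p = 0.158). Its B6 arrays spanned 3.44 to 5.14 and its D2 arrays 4.02 to 5.80, so the groups overlapped.

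Genes with several probe sets mostly gave like readings. Of 48 members with at least 2 probe sets above the filter, 39 had strain differences within 0.25 of each other. Only Ndufa12 (1.18 apart), Atp5g2 (0.80), Ndufc2 (0.62) and Ndufs8 (0.60) were 0.5 or more apart. ND5, a complex I subunit encoded in mitochondrial DNA, is no member, and it had means of 12.94 ± 0.09 in B6 and 12.74 ± 0.09 in D2 (SD, n = 5; limma, adjusted p = 0.0827).

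Lists of related genes were put through the same strain comparison, in which 7.98% of all genes passed in either direction. The list of 36 tested assembly factors also holds the 4 Sdhaf members, none of which passed, and otherwise genes outside the listed names. Of the 36, 4 were higher in D2 and 2 lower. The higher ones were Cox18 (0.70), Oxa1l (0.53), Sco2 (0.74) and Uqcc3 (0.60), and the lower ones Atpaf1 (-1.02) and Coa5 (-0.37), with adjusted p from 0.00568 to 0.0326 in limma. Atpaf1, a chaperone of the catalytic head of ATP synthase, had signals of 6.54, 6.33, 6.11, 6.56 and 6.32 in B6 and 5.27, 5.04, 5.61, 5.66 and 5.17 in D2. The strains did not overlap in Atpaf1.

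Of 19 genes for electron carriers and inner membrane dehydrogenases, Coq5 was higher (0.56) and Coq7 lower (-0.67) in D2, both of them enzymes of coenzyme Q synthesis. Of 7 genes for transport of ADP, ATP and phosphate, 1 was lower, the phosphate carrier Slc25a3 (-0.29 ± 0.07 SE; limma, adjusted p = 0.0376). Of 18 regulators of mitochondrial biogenesis, 1 was higher, the fatty acid sensor Ppara (0.82 ± 0.18 SE; limma, adjusted p = 0.0337). None of 13 enzymes of the TCA cycle passed (2 at an unadjusted p under 0.05), and of 76 mitochondrial ribosomal proteins 3 were higher and 1 lower.

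For diet, the 8 fed arrays were compared with both week 0 arrays, with strain as a term. There was no array without the diet at any later week. Fits of fed arrays against week 0 therefore cannot separate diet from age or time of collection, in both strains together or in either. In what follows, a change or response with diet means fed minus week 0 and names no cause. No member passed in limma, where 0.651% of all genes did. At an unadjusted p under 0.05 there were 4 members (4.55%, against 17.5% of all genes). The median change of the members was -0.03 (0.01 over all genes), with 34 above 0 and 54 below. The 95% interval lay within 0.5 of 0 for 77 of the 88 and within 1 for 85. Only Cox8c changed by more than 0.5, 1.14% of the members against 17.4% of all genes and 6.9% of the 725 genes with a mean above 10.

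**Figure D2:**
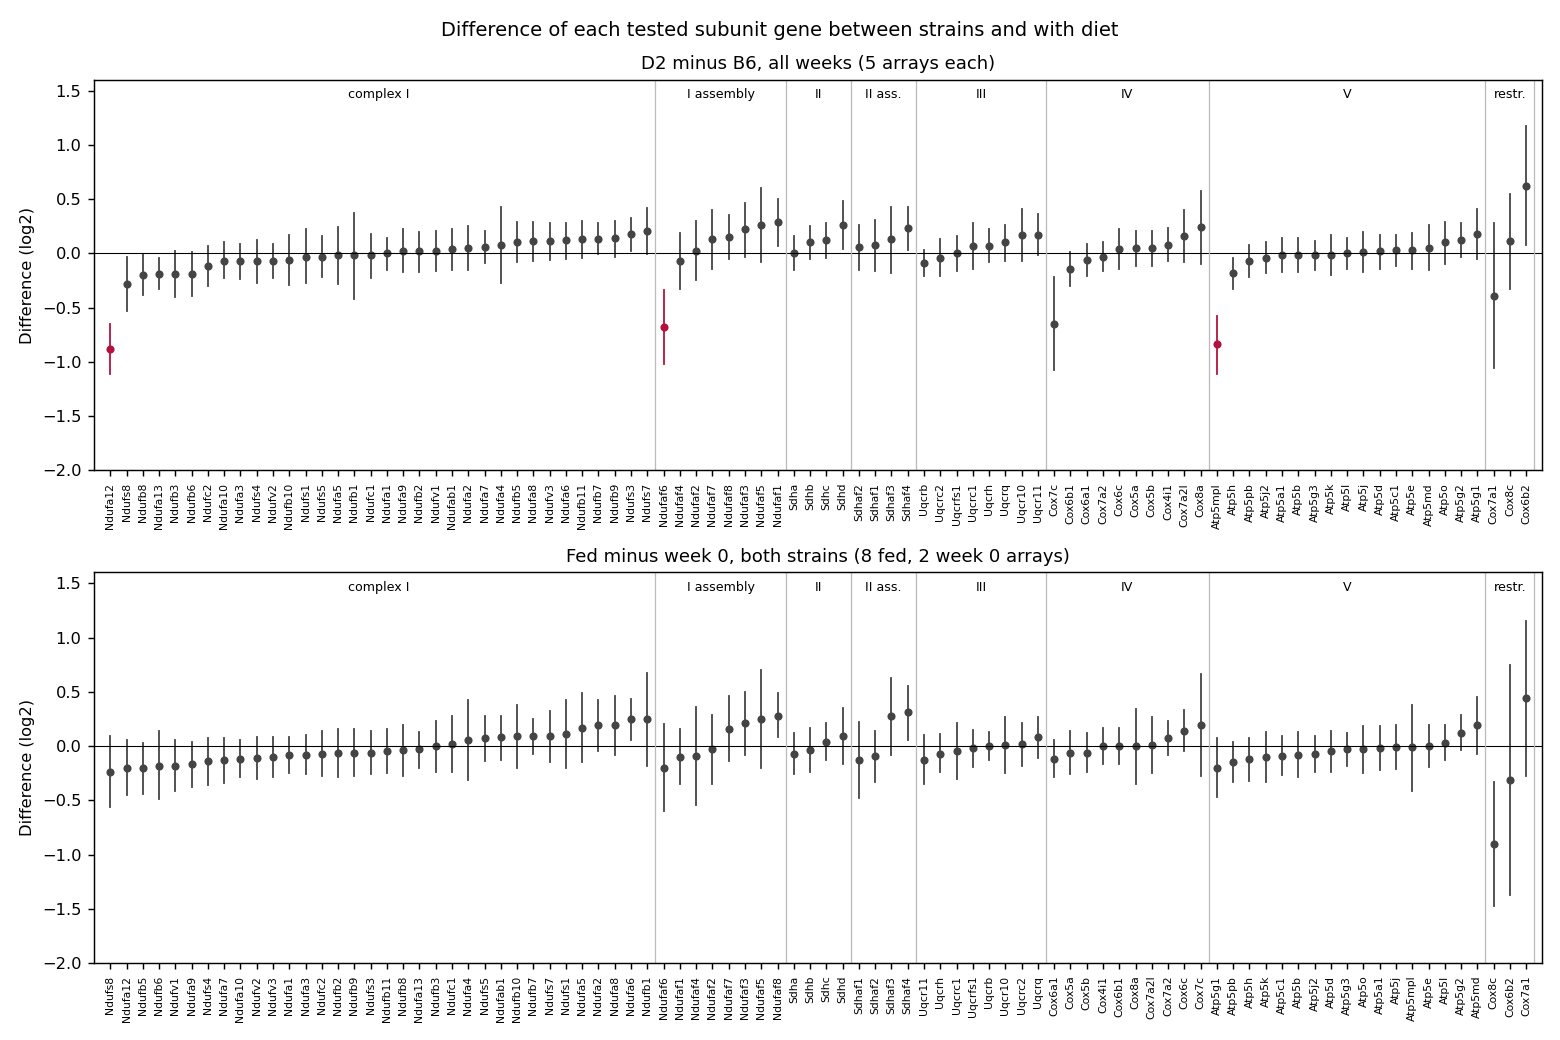
Log2 difference of each of the 88 tested genes (points) with its 95% interval (lines), for D2 minus B6 above and for fed minus week 0 below, grouped by complex and ordered by size within it; red marks adjusted p under 0.05 and "restr." the tissue-restricted isoforms. Red appears for Ndufa12, Ndufaf6 and Atp5mpl in the upper panel, and no gene is red in the lower one.

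Cox8c, the testis form of a complex IV subunit, was lower in all 8 fed arrays than in its own strain at week 0. It read 6.68 at week 0 and then 5.86, 5.08, 6.01 and 5.47 in B6. In D2 it read 6.51 and then 5.56, 5.56, 5.72 and 6.28. The change of -0.90 ± 0.26 (SE) did not pass (limma, adjusted p = 0.12). The second probe set of Cox8c lay below the filter (mean 2.15), so there was no other usable reading.

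The other 3 members with an unadjusted p under 0.05, a smaller share than among all genes, were the assembly factors Ndufaf8 (0.28 ± 0.09 SE; limma, adjusted p = 0.166) and Sdhaf4 (0.31 ± 0.11; 0.195), and the complex I subunit Ndufa6 (0.25 ± 0.08; 0.176). A second probe set of Ndufaf8 above the filter (mean 6.09) changed by only 0.01. In B6 it read 6.13 and then 6.09, 5.94, 5.88 and 5.89, all below week 0. In D2 it read 6.03 and then 6.17, 6.27, 6.32 and 6.14, all above week 0. Over 20 settings the change of Ndufaf8 ran from 0.01 to 0.78, and it passed in 1 (limma, adjusted p from 0.00335 to 0.979). Ndufa6 read 10.16, 10.23, 10.29, 10.33 and 10.27 in B6 and 10.07, 10.40, 10.44, 10.55 and 10.40 in D2. Week 0 was the lowest array of Ndufa6 in both strains. All 8 fed arrays were above their week 0 for 7 members (7.95%, against 11.1% of all genes) and below it for 8 (9.09%, against 9.94%).

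The range of values within each complex was narrow. Complex III ran from -0.13 (Uqcr11) to 0.08 (Uqcrq), complex IV from -0.12 (Cox6a1) to 0.19 (Cox7c), and ATP synthase from -0.20 (Atp5g1) to 0.19 (Atp5md). Complex I ran from -0.24 (Ndufs8) to 0.25 (Ndufb1, whose signal is dim). The complex II subunits lay between -0.07 (Sdha) and 0.09 (Sdhd). None of the genes in the 5 related lists passed with diet either. Ppargc1a, a coactivator of mitochondrial biogenesis, had the change -0.80 ± 0.23 (SE; limma, adjusted p = 0.12).

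The outcome for diet rests on the normalisation. On the deposited scale, where both week 0 arrays are dimmer as a whole, 35 members passed as higher with diet. So did 44.7% of all genes, against 39.8% of the members. The median change there was 0.34 for the members and 0.52 for all genes, so relative to all genes the members stood at -0.18.

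Within B6 no member passed (0.118% of all genes did), nor within D2 (0.118%), in limma with the lone week 0 array assumed to vary like the fed ones. At an unadjusted p under 0.05 there were 3 members in B6 (3.41%, against 12.6% of all genes) and 5 in D2 (5.68%, against 11.5%). The median changes of the members were -0.01 and -0.03. The response did not differ between strains for any member at the threshold (0.00904% of all genes passed in limma). At an unadjusted p under 0.05 there were 3 members (Ndufa4, Cox8a and Ndufa12; 3.41%, against 6.09% of all genes). Here the precision was lower: the 95% interval lay within 1 of 0 for 78 members, but within 0.5 for only 26. The slope on log2 of the week among fed arrays passed for no member and 0% of all genes in limma, and its median was 0.00. At an unadjusted p under 0.05 it held 1 member (1.14%, against 4.73% of all genes).

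Some members had their fed arrays on opposite sides of week 0 in the strains. Ndufa4 and Cox8a, both subunits of complex IV in current nomenclature, lay below week 0 in all fed B6 arrays and above it in all fed D2 arrays, 2.27% of the members against 3.43% of all genes. Cox6b1, another subunit of complex IV, had the opposite pattern, 1.14% of the members against 3.6% of all genes. Ndufa4 read 10.75 at week 0 and then 10.74, 10.32, 10.31 and 10.36 in B6. In D2 it read 10.23 and then 10.48, 10.73, 10.75 and 10.69. The B6 array of week 1 was level with week 0 to within 0.01, and the later B6 arrays were lower. The difference between responses was 0.75 ± 0.25 (SE; limma, adjusted p = 0.717).

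Cox8a, whose promoter with 2 ETS motifs is shown above, read 10 at week 0 and then 9.92, 9.66, 9.49 and 9.61 in B6. It read 9.71 and then 9.83, 10.07, 10.19 and 10.06 in D2. The fed arrays again lay on opposite sides of week 0, with a difference between responses of 0.66 ± 0.25 (SE; limma, adjusted p = 0.758). A second probe set of Cox8a read 9.87, 9.91, 9.60, 9.49 and 9.58 in B6 and 9.66, 9.71, 9.98, 10.11 and 10.05 in D2. Neither gene passed, and each strain has a single week 0 array.

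Cox6b1 read 11.74 at week 0 and then 11.96, 11.83, 11.82 and 11.86 in B6. In D2 it read 11.80 and then 11.72, 11.69, 11.67 and 11.62. The difference between responses was -0.26 ± 0.14 (SE; limma, adjusted p = 0.857). Ndufa12 also had a negative difference, -0.47 ± 0.19 (SE; limma, adjusted p = 0.775), as did Ndufs8, -0.53 ± 0.26 (SE; limma, adjusted p = 0.844). Cox7a1, the heart and muscle form of its subunit, had the largest difference between responses of the 88, 1.15 ± 0.57 (SE; limma, adjusted p = 0.844). It is dim, at 4.83 and then 5.11, 4.58, 4.58 and 4.49 in B6, and 3.52 and then 4.11, 5.08, 4.27 and 4.65 in D2. Its week 0 array was the lowest of D2, where the change with diet was 1.01 ± 0.40 (SE; limma, adjusted p = 0.385).

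The median SD of the members over the 10 arrays was 0.12, against 0.28 for all genes and 0.18 for the 725 genes with a mean above 10. Ribosomal protein genes were about as steady, with a median SD of 0.11 for the 41 cytosolic and 0.16 for the 76 mitochondrial ones. The range over the arrays was under 1 for 81 of the 88 (92%), against 57.8% of all genes, 81.5% of the genes above 10, 85.4% of the cytosolic and 97.4% of the mitochondrial ribosomal proteins. The low spread is thus not particular to the members. The median of the members was 10.45, 10.43, 10.30, 10.40 and 10.41 in the B6 arrays in order of week, and 10.48, 10.42, 10.43, 10.46 and 10.45 in D2. The B6 array of week 4 was the lowest of the 10.

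That array was examined further after its values were seen, so what follows is a description of 1 pool with no test. Of the 88 members, 61 (69.3%) had their lowest B6 signal at week 4, against 24.7% of all genes and 34.2% of the genes above 10. In D2, week 4 was the lowest array for 11 of the 88 (12.5%, against 14.8% of all genes). By complex the B6 counts were 25 of 34 for complex I, 4 of 4 for complex II, 7 of 8 for complex III, 6 of 10 for complex IV and 15 of 17 for ATP synthase. For assembly factors they were 2 of 8 for complex I and 0 of 4 for complex II.

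The shifts were small. The B6 array of week 4 stood below the mean of the other B6 arrays in 79 of 88 members. So it did in 5867 of all 11061 genes and in 447 of the 725 genes above 10. The median difference of the members was -0.17 (-0.02 over all genes, -0.06 for the genes above 10). Uqcrc1, a core subunit of complex III, read 10.53, 10.55, 10.10, 10.51 and 10.37. Atp5g1 read 10.50, 10.48, 9.95, 10.30 and 10.16, and the complex I subunit Ndufb5 10.51, 10.39, 9.98, 10.36 and 10.28. In all 3, week 4 lay below every other B6 array and below all 5 D2 arrays.

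Not every member was low there. Ndufb1 was higher than in the other B6 arrays by 0.62, at a dim 5.97, and Ndufa2 by 0.18. Among related lists, 10 of 13 TCA cycle enzymes had their lowest B6 signal at week 4 (median difference -0.26), the 76 mitochondrial ribosomal proteins had a median of -0.08, and the 41 cytosolic ribosomal proteins a median of 0.10. On the deposited scale 9 members were lowest at week 4 and 76 at week 0, where 75.9% of all genes were lowest as well. The median difference of the members was then -0.09 against 0.22 for all genes, which is -0.31 relative to them, and with arrays centred on their medians it was -0.32.

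**Figure D3:**
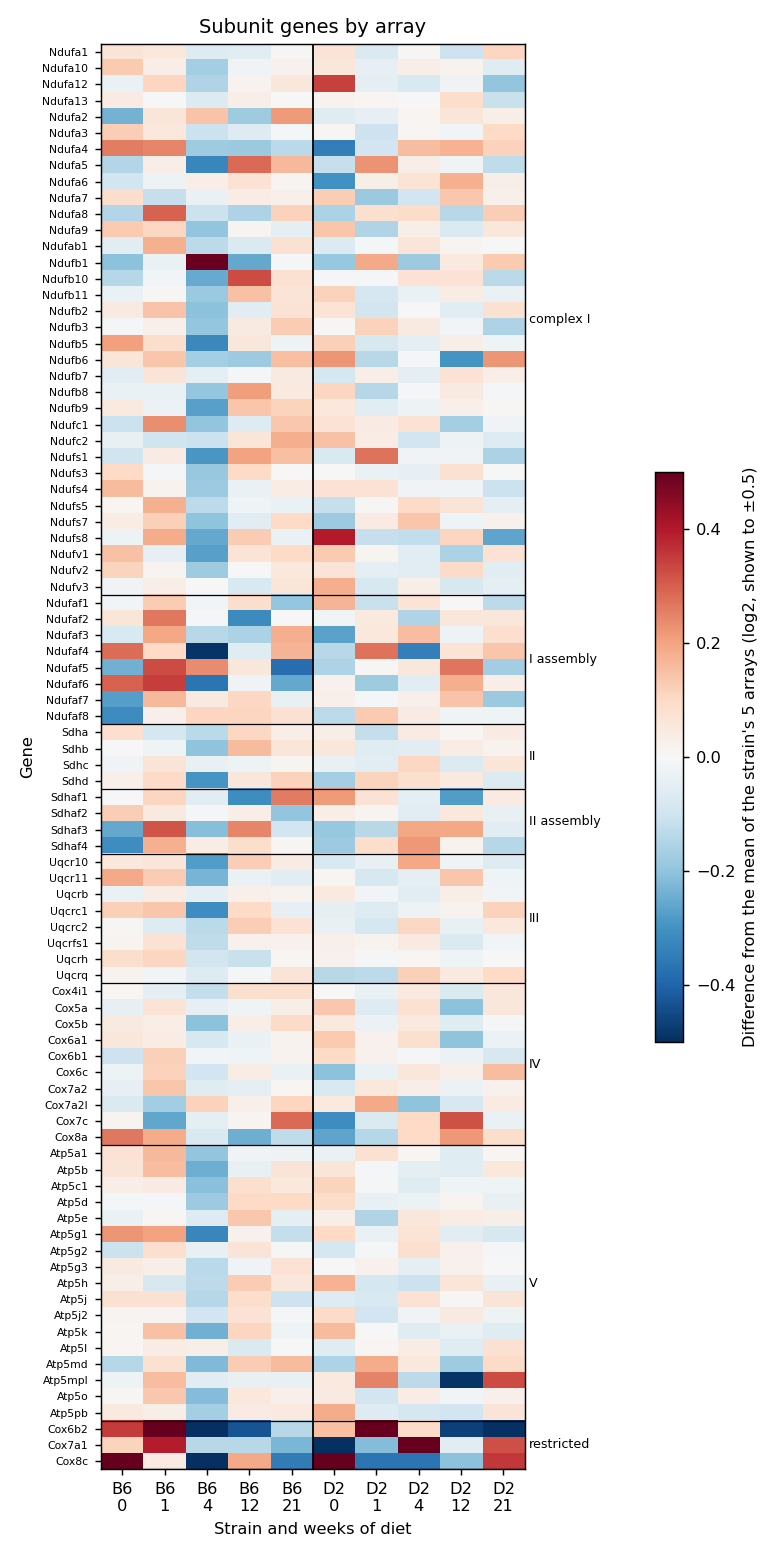
Each row is 1 of the 88 tested genes, grouped by complex, and each column 1 array; colour gives the log2 difference from the mean of the strain's 5 arrays, blue below and red above, with the colour scale ending at 0.5 either way. The column of B6 at week 4 is blue for most subunits of complexes I, II, III and V, with a median of -0.14 over all members.

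The markers of some other cell types, but not of all, were highest in this B6 array. The 16 macrophage and Kupffer cell markers, 14 of them above the filter, summed to a linear signal of 18790 in B6 at week 4. In the other B6 arrays the sum was 3423, 7458, 3566 and 11037 at weeks 0, 1, 12 and 21, and in D2 it was 3368 to 4832. Cd68, a macrophage marker, read 9.13 at week 4 against 5.83 to 8.30 in the other B6 arrays. Csf1r (11.43) and Lyz2 (11.93) were also highest there among the B6 arrays. The Kupffer cell marker Clec4f was not, at 9.06 against 9.48 at week 1 and 9.21 at week 21. The 10 stellate cell and fibroblast markers summed to 4161, against 1987 to 3143. T, B and NK cell markers, 4 of 9 above the filter, summed to 316, against 122 to 178. The 8 endothelial cell markers summed to 1138, against 1151 to 1336. Cholangiocyte and erythroid cell markers, with 1 above the filter each, summed to 48 (43 to 76) and 147 (92 to 150). The hepatocyte markers summed to 63755, near the low end of the other B6 arrays (63749 to 65880). Their median log2 signal was 12.48, against 12.54 to 12.60 in the other B6 arrays. These markers lie near the top of the signal range, where quantile normalisation makes arrays alike, so their sum cannot show whether the hepatocyte share changed. At weeks 1 and 21, where the macrophage sum was above that of week 0, the members' median difference from the B6 mean was 0.07 and 0.02. At week 4 it was -0.14. The part of other cells in the lower signals was not tested.

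**Figure D4:**
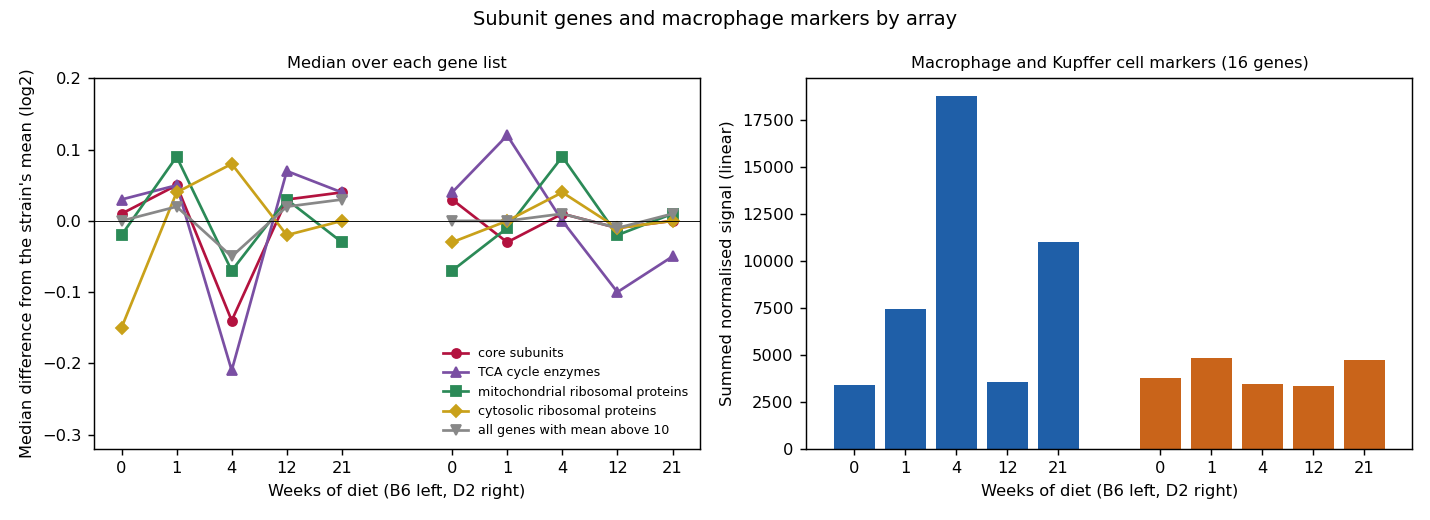
Left, the median log2 difference from the strain's mean for core subunits, TCA cycle enzymes, both kinds of ribosomal proteins and genes with a mean above 10, by array; right, the summed linear signal of 16 macrophage and Kupffer cell markers in the same arrays (bars from 0). Core subunits (-0.14) and TCA cycle enzymes (-0.21) are lowest in the B6 array of week 4, where the marker sum is highest at 18790.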

How the data were processed

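The 10 liver arrays (Affymetrix GeneChip) of both strains were used, each a pool of 5 mice per the labels. The deposited values are linear signal intensities that the authors computed with GCOS, per the submitters' processing notes, with no version given; how they were scaled is not given in the sources used here. Total RNA was taken with Trizol, per the labels' protocols.

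After quantile normalisation, 1.05 (the 10th percentile of the values) was added as a pseudocount and log2 was taken. Probe sets with 1 gene symbol (34945 of 45101) were named from the platform annotation, with symbols updated through RefSeq (GRCm38.p6), which changed no member. The brightest probe set by mean over the arrays stood for each gene, and the 11061 genes with a mean over 3.74, the median of all probe sets, were tested. limma 3.58.1 in R 4.3.3 (lmFit, eBayes with trend) gave 6 fits: strain with week as a block, diet with strain as a term, diet within each strain, its difference between strains, and the slope on log2 week. Residual degrees of freedom were 4 for strain, 7 for diet, 6 within strains and for their difference, and 5 for the slope. P-values were adjusted over all tested genes by Benjamini-Hochberg at 0.05. The fits share arrays, and those with diet share the week 0 arrays. The scripts were tested on simulated data. Figures were drawn with matplotlib.

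The members, lists and comparisons were chosen with earlier results of these data known. Named genes were those that passed, the ends of each complex in the strain and diet fits, all Sdh genes, tissue-restricted isoforms, Cox7a2l and Ndufa4. Other genes named, and the look at B6 week 4, were chosen after their values were seen. The number of arrays limits the precision.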

Additional observations from a re-analysis of the deposited data

Results flagged for a closer look

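In groups of 4 fed arrays, 4 values stood apart by Dixon's criterion among 46 groups examined, where chance gives about 1 in 20. They were Atp5mpl in B6 at week 1 (10.12, above the other fed arrays), Sdhd in B6 at week 4 (9.76, below them), Ndufa4 in B6 at week 1 (10.74, above them) and Cox7a1 in B6 at week 1 (5.11, above them).

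Ndufa4 and Cox8a were marked because every fed B6 array lay below its week 0 and every fed D2 array above it. The difference between the responses was 0.75 for Ndufa4 and 0.66 for Cox8a, and in limma neither passed (adjusted p = 0.717 and 0.758, and from 0.447 to 0.998 and from 0.61 to 0.998 over the alternatives). Cox6b1 was marked for the opposite pattern, with a difference between the responses of -0.26 (limma, adjusted p = 0.857, and from 0.667 to 0.998 over the alternatives).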

How the results depend on the processing

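Normalisation moved most of what moved. On the deposited scale 35 members were higher with diet, with a median of 0.34 (0.52 over all genes), and in B6 alone 8 were higher with a median of 0.40 (0.58). The D2 median was 0.28 (0.43), that of the difference between strains -0.10 (-0.16), and at B6 week 4 it was -0.09 (0.22), with 9 members lowest there. With arrays centred on their medians, the members' median was 0.10 for strain, -0.12 for diet in B6, 0.02 for diet in D2, 0.16 for the difference between strains and -0.32 at B6 week 4. With probe sets free of multi-target suffixes the median difference between strains in response was 0.08, and leaving out 1 array at a time it ran from -0.05 to 0.03, the lowest without B6 week 4. The other 396 summary values stayed within the spread or within 1.5 times, and no direction that had passed was reversed. Without week as a block 4 members were lower in D2, Cox7c being added (limma, adjusted p = 0.0443). Cox7c passed in 3 of the 19 settings that tested it (limma, adjusted p from 0.0412 to 0.393). Atp5mpl passed in all 21 settings (limma, adjusted p from 0.00271 to 0.0186), Ndufa12 in 19 and Ndufaf6 in 12; Ndufa12 was lost with its probe sets averaged (0.0622) or read without multi-target suffixes (0.467), and Ndufaf6 also with eBayes without trend (0.056). The cause of these losses was not tested. With 1 pool at each strain and week, no value at a single week has an error of its own. The week 4 results were chosen after seeing the data.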
